A study of Mus musculus with 8 samples.

Results

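The transcripts of 10 receptors for colony-stimulating factors, stem cell factor and interleukins were followed in mouse bone-marrow-derived macrophages with and without progranulin. The 10 genes, of 56980 in the deposited gene table, were Csf1r, Csf2ra, Csf2rb, Csf3r, Kit, Flt3, Il7r, Il2rg, Il4ra and Il10ra. They were chosen by symbol, as a family, at a time when the difference between GrnKO and WT libraries was already known for every gene; the changes given below are therefore descriptions of these 8 libraries and are no independent test of the family. Each symbol matched 1 gene. Of the 10 genes, 9 had enough counts to be tested and Flt3 had not. Kit passed that filter on low counts through the GrnKO libraries, where it was high.

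Bone marrow of C57/Bl6 mice, wild type (WT) or with a constitutive knockout of Grn (GrnKO), the gene of progranulin, was grown into macrophages, with 4 libraries per genotype. Each biological replicate pooled the marrow of several mice, so the spread between libraries is a spread between pools. All cells of both genotypes were differentiated with M-CSF at 50 ng/mL, harvested on day 7, frozen, thawed, seeded with M-CSF again, cultured for 3 days and given DMSO. The labels give neither the knockout allele nor the age or sex of the mice. The assay reads the 3′ end of polyadenylated RNA, so a transcript yields about the same number of tags whatever its length. Levels are given as CPM, the tags of a gene relative to all tags of its library, on library sizes scaled by the trimmed mean of M values (TMM), and may be compared between genes without dividing by length.

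The receptors fall into 2 structural classes. CSF1R, KIT and FLT3 are receptor tyrosine kinases that dimerise on binding M-CSF or IL-34, stem cell factor and FLT3 ligand, respectively. The others are type I or type II cytokine receptors, which have no kinase domain of their own and signal through JAK kinases and STAT factors. CSF2RA binds GM-CSF and signals with the common beta chain CSF2RB, which also serves IL-3 and IL-5. IL2RG is the common gamma chain of the receptors for IL-2, IL-4, IL-7, IL-9, IL-15 and IL-21. IL7R and IL4RA are the ligand-binding chains that pair with it for IL-7 and IL-4. In bone marrow, CSF1R drives the survival and differentiation of macrophages, CSF3R that of neutrophils, KIT marks progenitors and mast cells, FLT3 marks progenitors of lymphoid and dendritic cells, and IL7R is best known on lymphocytes.

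The upstream sequences of the 3 receptor genes whose transcripts passed the threshold are shown to place them beside their values. They are RefSeq sequences on GRCm38.p6, not the build of the deposited counts, and end at the base before the gene. The promoter table held 7 of the 10 receptor genes. Capitals mark matches, on either strand, to an E-box (CANNTG), a STAT site (TTCNNNGAA) or a PU.1 core (GAGGAA).
Kit, chr5:75574737-75574986, + strand: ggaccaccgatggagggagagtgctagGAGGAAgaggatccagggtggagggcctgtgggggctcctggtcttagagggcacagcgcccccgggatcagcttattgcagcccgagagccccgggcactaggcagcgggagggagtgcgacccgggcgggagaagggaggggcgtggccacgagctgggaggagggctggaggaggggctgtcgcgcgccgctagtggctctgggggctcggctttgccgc
Il7r, chr15:9529942-9530126, - strand: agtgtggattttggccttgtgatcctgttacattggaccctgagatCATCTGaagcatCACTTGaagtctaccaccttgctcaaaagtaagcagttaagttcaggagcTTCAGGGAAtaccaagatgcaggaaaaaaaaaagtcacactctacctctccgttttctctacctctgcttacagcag
Il4ra, chr7:125552021-125552270, + strand: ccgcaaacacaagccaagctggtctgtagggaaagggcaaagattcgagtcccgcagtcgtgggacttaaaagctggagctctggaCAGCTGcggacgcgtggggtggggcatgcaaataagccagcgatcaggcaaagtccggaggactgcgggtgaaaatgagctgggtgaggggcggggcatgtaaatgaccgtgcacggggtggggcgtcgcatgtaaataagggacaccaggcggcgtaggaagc

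The Kit window of 250 bases was 70.8% G or C and held 1 PU.1 core, a match found in 23.1% of the upstream windows of that length of 27025 genes. The Il7r window of 185 bases, 43.8% G or C, held 2 E-boxes and 1 STAT site, found in 56.4% and 5.50% of windows of that length. The Il4ra window of 250 bases, 59.6% G or C, held 1 E-box, found in 66.0% of windows. The Il7r and Il4ra windows thus held E-boxes and the Kit window none. A match is a run of letters and was not tested as a binding site.

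Libraries held 5828180 to 8768770 counts, with RNA integrity numbers of 9.9 or 10. Grn stood at 1436 to 2027 CPM in the WT libraries and at 12.96 to 14.4 CPM in the GrnKO libraries, so all 8 libraries matched their labels. The macrophage markers Adgre1, Cd68, Itgam, Fcgr1, Mertk, Cd14, Lyz2 and Mrc1 were all detected and none was called. Adgre1, the F4/80 antigen, ranged from 585 to 867 CPM over WT and 456 to 562 CPM over GrnKO libraries (edgeR adjusted p = 0.05002, just over the threshold). Itgam (edgeR adjusted p = 0.072), Fcgr1 (0.074) and Cd14 (0.11) were likewise lower in every GrnKO library than in any WT library. Cd68 was higher in every GrnKO library (0.18), and Mertk, Lyz2 and Mrc1 overlapped between genotypes. Of all tested genes, 12.0% did not overlap. Lyz2, the macrophage lysozyme, ranged from 3100 to 6008 CPM over WT and 4142 to 5418 CPM over GrnKO libraries (0.95). In bulk libraries, fewer cells that carry a transcript and less transcript per cell cannot be told apart, and this holds for every level below.

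Transcripts of Kit and Il7r rose in the GrnKO macrophages, and Il4ra fell. Kit rose 6.03-fold from a very low level and Il7r 2.70-fold from a high one, while Il4ra in WT libraries stood at 1.74 times its GrnKO level. Csf2rb was higher in every GrnKO library than in any WT library but did not pass the threshold. Csf1r, Csf2ra, Csf3r, Il2rg and Il10ra overlapped between genotypes and were not called. Differences were called at an adjusted p under 0.05 in edgeR's quasi-likelihood test of GrnKO against WT over 12186 genes, of which 518 or 4.25% were called. Of the 9 receptor genes tested, 2 were called higher and 1 lower, against 2.79% and 1.46% of all tested genes. The genotypes did not overlap in 4 of the 9, against 12.0% of all tested genes. Because the genes were picked with this contrast known, nothing is read from these shares. Markers of other myeloid cells also differed between the genotypes. Monocyte markers summed to 189 to 506 CPM over WT and 32.0 to 54.8 CPM over GrnKO libraries, and Ccr2 and Cx3cr1 fell. Markers of osteoclasts, which need M-CSF to form, summed to 142 to 172 CPM over WT and 339.7 to 401 CPM over GrnKO libraries, and Ctsk and Atp6v0d2 rose. Most of that sum was Atp6v0d2, a proton pump subunit that ranged from 86.0 to 113 CPM over WT and 254 to 319.5 CPM over GrnKO libraries. The other 5 tested were not called, among them Nfatc1 (log2 fold change -0.09 ± 0.13), and Calcr, Oscar and Ocstamp were too low to be tested. The part of such cells in the receptor values was not tested.

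**Figure D1:**
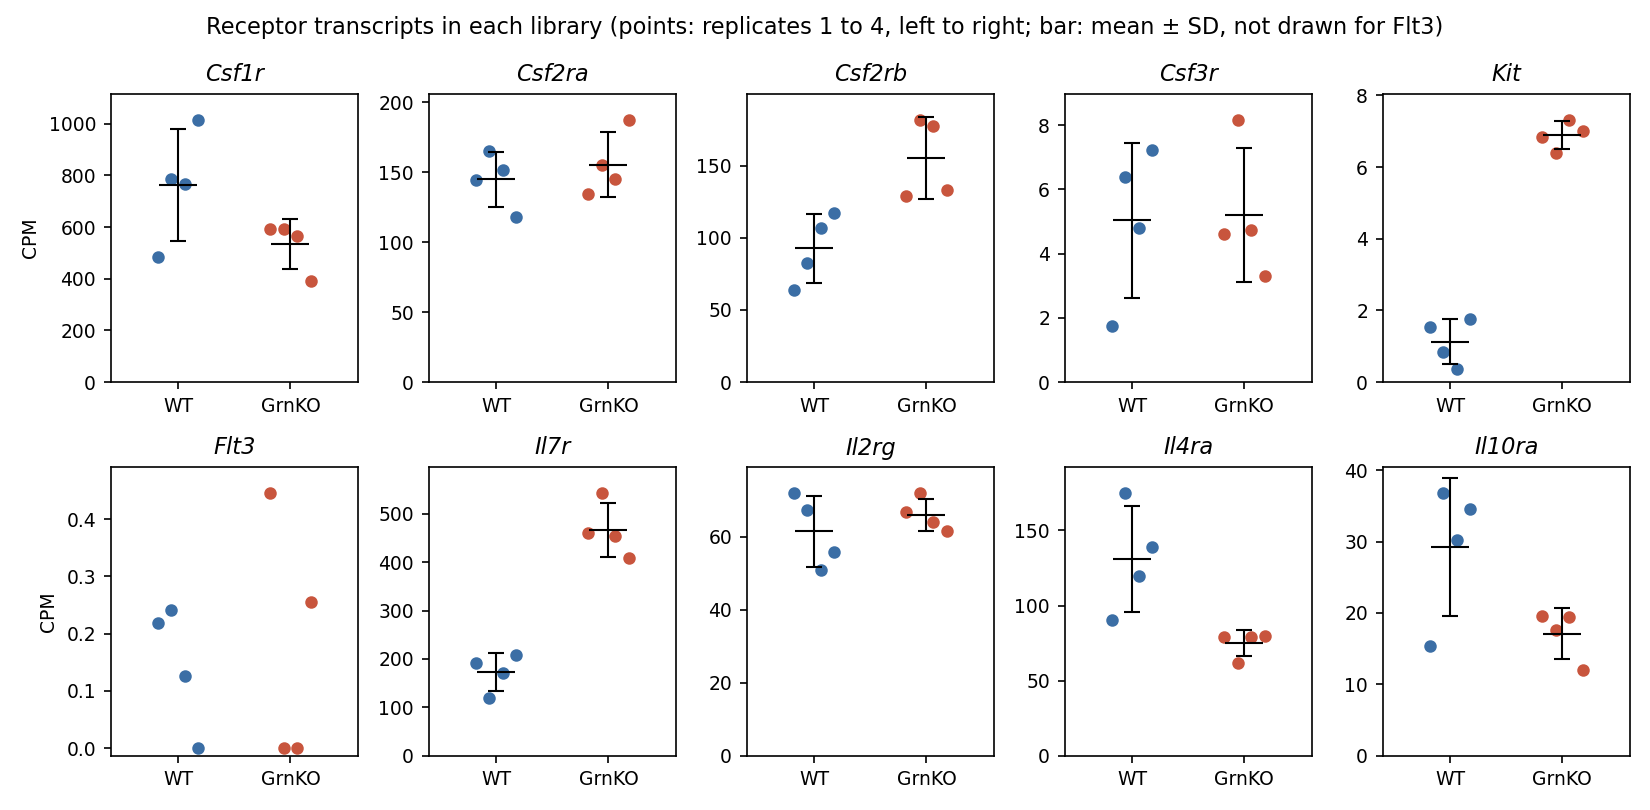
Transcript level of each of the 10 receptor genes, in CPM on a linear axis, in the 4 WT (blue) and 4 GrnKO (red) libraries; points are replicates 1 to 4 from left to right and bars the mean ± SD, left out for Flt3. The GrnKO points of Kit, Il7r and Csf2rb lie above all WT points, and those of Il4ra below them; Flt3 is at most 0.447 CPM.

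Csf1r encodes the receptor of the growth factor in which the cells were grown. Its level was 485, 785, 768 and 1015 CPM in WT replicates 1 to 4. GrnKO replicates 1 to 4 gave 591, 593, 567 and 391 CPM. WT replicate 1 lay below 3 of the GrnKO libraries, so the genotypes overlapped, and GrnKO replicate 4 was the lowest of all. The mean was 763 ± 217 CPM in WT against 535 ± 96.8 CPM in GrnKO (SD, n = 4 per group), a log2 fold change of -0.51 ± 0.20 (SE; edgeR adjusted p = 0.21). Without WT replicate 1 the log2 fold change was -0.68 and Csf1r was called (edgeR adjusted p = 0.023), and without any other library it was not. It was also called when no genes were left out for low counts (0.0016). Csf1, the gene of M-CSF itself, was expressed at 11.2 to 34.7 CPM by the WT and 11.8 to 21.0 CPM by the GrnKO cells and was not called (edgeR adjusted p = 0.57). Csf1r was the most abundant of the 10 transcripts in both genotypes, with a mean above that of 98.1% of tested genes.

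Kit, the receptor tyrosine kinase for stem cell factor, was counted 14, 7, 3 and 13 times in WT replicates 1 to 4. It was counted 46, 36, 48 and 55 times in GrnKO replicates 1 to 4. These counts correspond to 1.53, 0.84, 0.38 and 1.77 CPM in WT against 6.85, 6.39, 7.32 and 7.01 CPM in GrnKO libraries. Every GrnKO library was thus above every WT library, and the GrnKO libraries lay close together. The mean rose from 1.13 ± 0.64 to 6.89 ± 0.39 CPM (SD, n = 4 per group), a log2 fold change of 2.59 ± 0.35 (SE; edgeR adjusted p = 0.0015). The gene ranked 87th of 12186 by p, yet its mean was above that of only 16.1% of tested genes. Leaving out any 1 library gave log2 fold changes of 2.31 to 2.86, with Kit called each time.

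Markers of mast cells and of progenitors, the cells in which Kit is best known, were measured beside it. All 10 markers of mast cells and basophils, among them Cpa3, Mcpt4, Fcer1a and Gata2, had a mean under 1 CPM in both genotypes, with 2 of the 10 at 0 in every library. Their summed level was 0.36 to 2.52 CPM in WT against 0.36 to 0.74 CPM in GrnKO libraries. The progenitor marker Cd34 stood at 0.25 to 2.45 CPM in WT against 0.45 to 0.89 CPM in GrnKO libraries. The 9 progenitor markers summed to 178 to 304 CPM in WT against 157 to 171 CPM in GrnKO libraries, nearly all of it from Cd48, a surface protein of many leukocytes, and Ly6a, and none of the 3 tested was called. Ly6a ranged from 6.13 to 164 CPM over WT and 1.22 to 7.52 CPM over GrnKO libraries, and Meis1 from 1.93 to 4.82 and 0.76 to 2.38 CPM. The part of either cell type in the Kit level was not tested. Kitl, the gene of stem cell factor itself, stood at 77.2 to 79.2 CPM in WT against 90.5 to 101 CPM in GrnKO libraries and was not called (log2 fold change 0.29 ± 0.10, edgeR adjusted p = 0.14).

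Flt3, the third receptor tyrosine kinase, was not detectable as a difference at this depth. It had 2, 2, 1 and 0 estimated counts in WT replicates 1 to 4. The GrnKO replicates had 3, 0, 0 and 2.13. No library exceeded 3 counts, the limit that a count of 0 allows, which is 0.328 to 0.533 CPM in these libraries and covers counting error only. Its ligand gene Flt3l was detected, at 8.68 to 10.2 CPM in WT against 5.68 to 7.44 CPM in GrnKO libraries, and was not called (edgeR adjusted p = 0.14).

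Il7r, the ligand-binding chain of the IL-7 receptor and also a chain of the TSLP receptor, measured 193, 119, 171 and 209 CPM in WT replicates 1 to 4. The GrnKO libraries held 460.3, 543, 455 and 409 CPM, again in order of replicate. All 4 GrnKO libraries lay well above all 4 WT libraries. The mean rose from 173 ± 39.3 to 467 ± 55.8 CPM (SD, n = 4 per group), a log2 fold change of 1.43 ± 0.17 (SE; edgeR adjusted p = 5.9e-04), and Il7r was called without any 1 library (1.29 to 1.54). The 12 markers of T, NK and innate lymphoid cells summed to 2.64 to 3.62 CPM in WT against 2.04 to 5.03 CPM in GrnKO libraries, and 11 of them had a mean under 1 CPM in both genotypes. Trac, a T cell receptor gene, was at 0 in every library. The part of such cells in the Il7r level was not tested.

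The partners of the IL-7 receptor chain were not called. Il2rg, the common gamma chain, measured 71.9, 67.3, 50.9 and 55.7 CPM in WT replicates 1 to 4. Its GrnKO values were 66.7, 71.9, 64.1 and 61.7 CPM in the same order. The genotypes overlapped, with means of 61.4 ± 9.81 and 66.1 ± 4.39 CPM and a log2 fold change of 0.10 ± 0.13 (SE, n = 4 per group; edgeR adjusted p = 0.75). Within each library, Il7r exceeded Il2rg by 1.77 to 3.76 times in WT and by 6.63 to 7.55 times in GrnKO. Crlf2, the other chain of the TSLP receptor, stood at 108 to 132 CPM in WT against 113 to 140.2 CPM in GrnKO libraries and was not called (0.12 ± 0.11). The ligand genes Il7 and Tslp were too low to be tested, with means of at most 1.12 CPM.

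Il7r was closer in level to Csf1r in the knockout. The ratio of Il7r to Csf1r was 0.40, 0.15, 0.22 and 0.21 across WT replicates 1 to 4. Across the GrnKO replicates it was 0.78, 0.92, 0.80 and 1.04. Csf1r was the higher of the pair in every WT library and in 3 of the 4 GrnKO libraries. The ratio contains both the rise of Il7r and the lower mean of Csf1r, of which the second was not called.

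**Figure D2:**
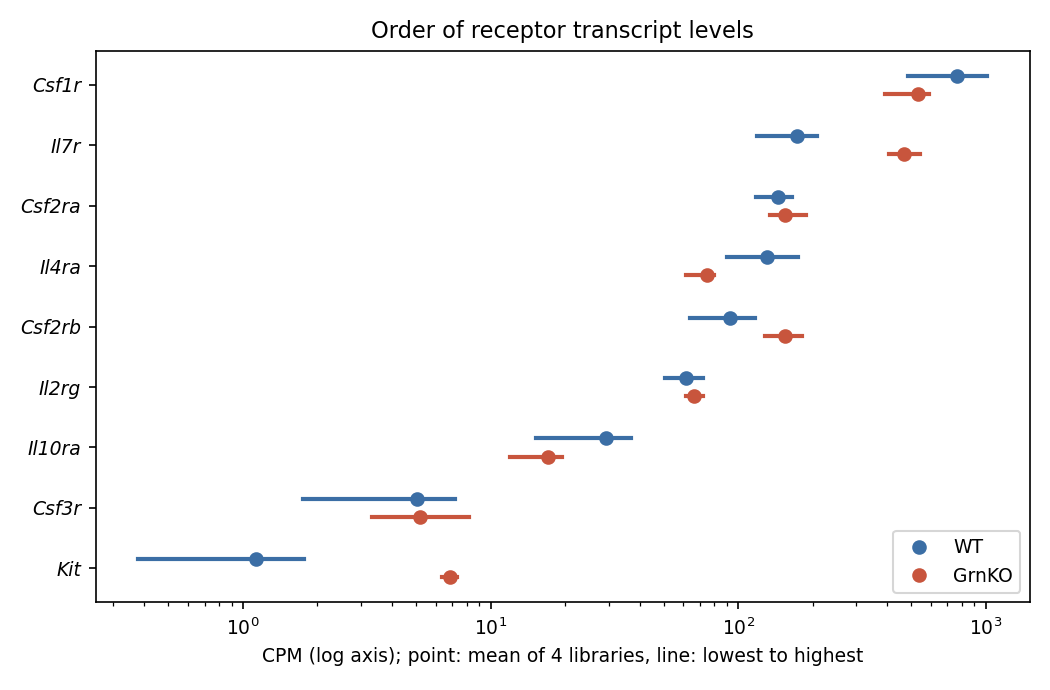
Level of 9 receptor transcripts in CPM on a log axis, ordered by the WT mean, for WT (blue) and GrnKO (red); points are means of 4 libraries and lines run from the lowest to the highest. Csf1r is highest in both genotypes, and in GrnKO the lines of Il7r (409 to 543 CPM) and Csf1r (391 to 593 CPM) overlap; Flt3, with libraries at 0, is not drawn.

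In WT libraries the order of mean levels was Csf1r, Il7r, Csf2ra, Il4ra, Csf2rb, Il2rg, Il10ra, Csf3r, Kit and Flt3. The ranges of Il7r, Csf2ra and Il4ra overlapped with one another, as did those of Il4ra and Csf2rb, of Csf2rb and Il2rg, and of Csf3r and Kit. In GrnKO libraries the order was Csf1r, Il7r, Csf2ra, Csf2rb, Il4ra, Il2rg, Il10ra, Kit, Csf3r and Flt3. There the ranges overlapped for Csf1r and Il7r, for Csf2ra and Csf2rb, for Il4ra and Il2rg, and for Kit and Csf3r. The order thus differed between genotypes in Csf2rb and Il4ra, which changed places, and in Kit and Csf3r, whose ranges overlapped in both.

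Csf2rb, the beta chain shared by the receptors for GM-CSF, IL-3 and IL-5, measured 64.1, 82.8, 106 and 117 CPM in WT replicates 1 to 4. GrnKO replicates 1 to 4 gave 129, 182, 178 and 133 CPM. Every GrnKO library was above every WT library. The means were 92.7 ± 23.9 and 155 ± 28.3 CPM (SD, n = 4 per group), a log2 fold change of 0.74 ± 0.19 (SE), and the edgeR adjusted p of 0.055 was just over the threshold. It was called without WT replicate 1 (edgeR adjusted p = 0.046) or WT replicate 4 (0.018) and not without any of the other libraries (up to 0.18). DESeq2 called it as well (adjusted p = 0.0084), as did edgeR with every gene kept (2.0e-05).

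Csf2rb2, which in the mouse encodes a second beta chain used by the IL-3 receptor, is a close paralog, and the estimated counts of both genes were not whole in all 8 libraries. Reads could therefore have been divided between them, and the level of each is uncertain. Estimated counts were also not whole in 7 libraries for Il7r, 7 for Il2rg, 4 for Csf2ra and 2 for Kit. For Csf1r, Flt3 and Il10ra this held in 1 library each. The part of shared reads in the levels of these other receptors was not tested. The Csf2rb2 mean was 46.3 ± 12.0 CPM for WT and 90.9 ± 18.8 CPM for GrnKO, a rise (log2 fold change 0.98 ± 0.21, edgeR adjusted p = 0.023), which leaving out WT replicate 3, GrnKO replicate 2 or GrnKO replicate 3 ended (up to 0.088). When the counts of the paralogs were added up, a step chosen after seeing the data, the sum was 92.7, 133, 157 and 173 CPM in WT against 201, 289.7, 284 and 210.3 CPM in GrnKO replicates 1 to 4. The sum rose from 139 ± 34.8 to 246 ± 47.0 CPM (SD, n = 4 per group), a log2 fold change of 0.83 ± 0.19 (edgeR adjusted p = 0.035). Csf2rb made up 62.1 to 69.2% of the sum in WT and 62.5 to 64.0% in GrnKO libraries.

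Csf2ra, the GM-CSF-binding chain, measured 144, 165, 152 and 118 CPM in WT replicates 1 to 4. The GrnKO libraries held 134, 155, 145 and 188 CPM, again in order of replicate. The genotypes overlapped throughout (log2 fold change 0.10 ± 0.14, edgeR adjusted p = 0.77). The ratio of Csf2rb to Csf2ra was 0.44 to 0.99 for WT against 0.71 to 1.23 in GrnKO libraries. Il3ra, the IL-3-binding chain, was not called either (-0.23 ± 0.22), and the ligand genes Csf2 and Il3 were at 0 in every library.

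Csf3r, the receptor of the neutrophil growth factor G-CSF, was low and uneven. Its level was 1.75, 6.39, 4.78 and 7.22 CPM in WT replicates 1 to 4. Its GrnKO values were 4.62, 8.17, 4.73 and 3.31 CPM in the same order. The genotypes overlapped (means 5.04 ± 2.41 and 5.21 ± 2.08 CPM; log2 fold change 0.04 ± 0.40, edgeR adjusted p = 0.97). Of all tested genes, 96.6% varied less than Csf3r among the WT libraries, by the SD of log2 CPM. The 12 neutrophil markers summed to 53.1 to 165 CPM in WT against 19.9 to 32.3 CPM in GrnKO libraries, most of it from S100a8 and S100a9. Of the 12, 8 were too low to be tested, among them Ly6g, Mpo and Elane. Of the 4 tested, 3 (S100a8, S100a9 and Ngp) were called lower, against 1.46% of all tested genes. Csf3r was lowest in WT replicate 1 and highest in GrnKO replicate 2; the part of neutrophil RNA in its level was not tested.

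Il4ra, the IL-4-binding chain of the receptors for IL-4 and IL-13, measured 90.4, 175, 119 and 139 CPM in WT replicates 1 to 4. GrnKO replicates 1 to 4 gave 79.4, 61.6, 79.2 and 80.0 CPM. All GrnKO libraries were below all WT libraries, WT replicate 1 by the smallest margin. From a WT mean of 131 ± 35.4 CPM it fell to 75.0 ± 8.96 CPM (SD, n = 4 each), a log2 fold change of -0.80 ± 0.18 (SE; edgeR adjusted p = 0.031). The call was made without WT replicate 1 (0.0028) or WT replicate 4 (0.043) and lost without any of the other 6 libraries (edgeR adjusted p of 0.067 to 0.12), at log2 fold changes of -0.84 to -0.63.

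The other chains that pair with IL4RA were not called. Il2rg is described above, and Il13ra1, the chain it pairs with to bind IL-13, stood at 5.26 ± 0.47 CPM in WT against 5.53 ± 0.92 CPM in GrnKO libraries (log2 fold change 0.07 ± 0.20, edgeR adjusted p = 0.90). Il4ra exceeded Il2rg by 1.26 to 2.60 times in WT libraries and stood at 0.86 to 1.30 times Il2rg in GrnKO libraries. Il21r, which pairs IL-21 with the same gamma chain, fell from 85.7 ± 18.9 to 37.5 ± 8.73 CPM (-1.19 ± 0.19, edgeR adjusted p = 0.0051), and was called without any 1 library, though not with replicate number as a block (0.058). The cytokine genes Il4 and Il13 were at or near 0, with means of at most 0.0372 CPM.

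Il10ra, the ligand-binding chain of the IL-10 receptor, measured 15.3, 36.8, 30.2 and 34.6 CPM in WT replicates 1 to 4. The GrnKO libraries held 19.5, 17.6, 19.4 and 12.0 CPM, again in order of replicate. WT replicate 1 lay among the GrnKO libraries, and the other 3 WT libraries lay above all of them. The means were 29.2 ± 9.66 and 17.1 ± 3.53 CPM (SD, n = 4 per group), a log2 fold change of -0.77 ± 0.26 (SE; edgeR adjusted p = 0.14). Without WT replicate 1 it was called (-0.99, edgeR adjusted p = 0.0060), and without any other library it was not. With every gene kept whatever its counts, it was called too (0.0011). Its partner chain Il10rb was far more abundant and was not called, at 469 ± 62.6 CPM in WT against 453 ± 69.6 CPM in GrnKO libraries (-0.05 ± 0.13). Il10ra amounted to 3.57 to 8.77% of Il10rb for WT against 3.10 to 4.56% in GrnKO libraries. Il10 itself was low, at 1.23 to 3.61 CPM in WT against 0.61 to 2.04 CPM in GrnKO libraries (edgeR adjusted p = 0.34).

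**Figure D3:**
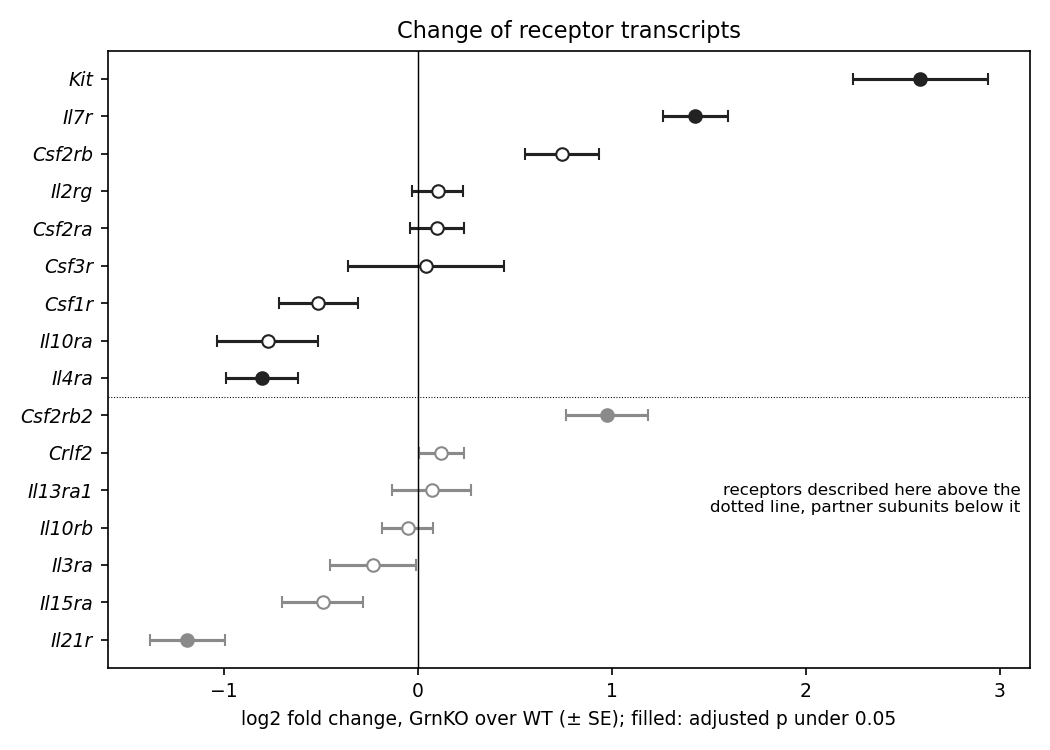
Log2 fold change of GrnKO over WT with its standard error for the 9 receptor genes tested (black) and the 7 tested partner subunits (grey); filled points passed an adjusted p under 0.05. Kit (2.59) and Il7r (1.43) lie highest, Il4ra (-0.80) lowest of the receptors, and of the partners Csf2rb2 (0.98) and Il21r (-1.19) are filled.

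WT libraries differed among themselves more than GrnKO libraries on most of these genes. The SD of log2 CPM was larger in WT than in GrnKO for 8 of the 9, the exception being Csf2ra (0.20 in WT and 0.21 in GrnKO). Over all genes, chi-square per degree of freedom was 9.93 to 45.2 between WT libraries against 2.91 to 10.2 between GrnKO libraries. A larger spread in WT was thus also seen over all genes, though by a measure unlike the SD that also grows with library depth. WT replicate 1 was the lowest WT library for Csf1r, Csf2rb, Csf3r, Il4ra and Il10ra, and the highest for Il2rg alone. WT replicate 4 was the highest for Csf1r, Csf2rb, Csf3r, Kit and Il7r. Among the GrnKO libraries, replicate 4 was the lowest for Csf1r, Csf3r, Il7r, Il2rg and Il10ra, and replicate 2 the highest for Csf1r, Csf2rb, Csf3r, Il7r and Il2rg. Csf1r, Csf3r and Il10ra were thus lowest in the same library within each genotype. Over all tested genes, the deviations of WT replicate 1 and GrnKO replicate 4 correlated at 0.40, the highest of any WT and GrnKO pair. The likeness of these libraries was thus not particular to the receptors. The 10 proliferation markers summed to 1234 to 3076 CPM in WT against 1685 to 2490.1 CPM in GrnKO libraries, and none was called. Their part in the differences between libraries was not tested.

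**Figure D4:**
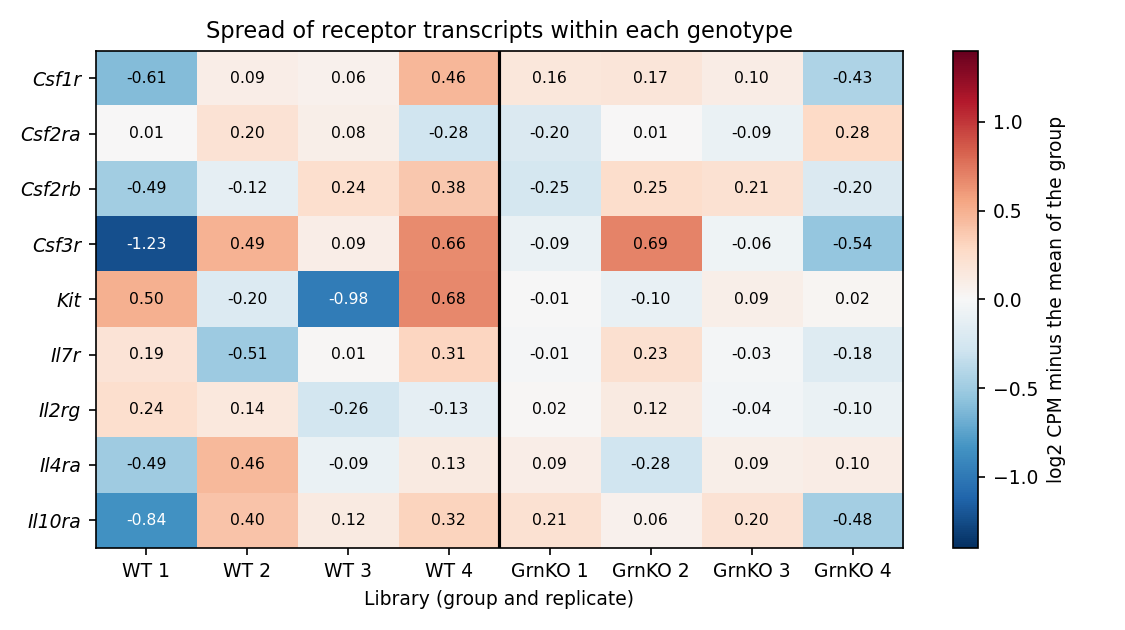
Log2 CPM of each tested receptor gene in each library minus the mean of its genotype, in colour and as numbers; the vertical line parts WT from GrnKO libraries. WT replicate 1 is low for Csf3r (-1.23), Il10ra (-0.84) and Csf1r (-0.61), and GrnKO replicate 4 for Csf3r (-0.54), Il10ra (-0.48) and Csf1r (-0.43).

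The counts of called genes in lists around these receptors stand against 4.25% of all tested genes, and nothing particular to a list is read from them. None of 6 tested ligand genes, of 17 listed, was called (median log2 fold change -0.31, against -0.03 over all tested genes). After Kitl the most abundant was Il15, whose mean was 21.1 CPM for WT and 18.2 CPM for GrnKO (edgeR adjusted p = 0.54). Of 7 tested partner subunits, 1 rose and 1 fell, named above (median -0.05). Of 26 other cytokine and growth factor receptors tested, 2 fell and none rose (median -0.19). These were Lifr, a receptor chain for leukaemia inhibitory factor, which fell from 30.1 ± 8.94 to 11.2 ± 2.25 CPM (-1.43 ± 0.22, edgeR adjusted p = 0.0042), and the IL-17 receptor chain Il17ra, which fell from 69.4 ± 14.0 to 36.2 ± 6.95 CPM (-0.93 ± 0.17, 0.011; not called without GrnKO replicate 2, 0.051).

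None of the 11 JAK and STAT genes was called (median -0.09). Jak1, the kinase used by most of these cytokine receptors, stood at 314 ± 41.0 CPM in WT against 314 ± 39.6 CPM in GrnKO libraries, and Stat3 at 193 ± 51.8 and 182 ± 13.9 CPM. Of 25 tested transducers of CSF1R signalling, 1 fell and none rose (median -0.15). It was Pik3cg, a catalytic subunit of PI3 kinase, which fell from 91.2 ± 7.48 to 64.0 ± 2.47 CPM (-0.51 ± 0.11, edgeR adjusted p = 0.019). Leaving out WT replicate 3 or any GrnKO library ended that call (up to 0.080).

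Of 23 tested feedback inhibitors of cytokine receptors, 2 rose and none fell (median -0.24). The ubiquitin ligase Cblb, a relative of the CBL protein that marks activated receptor tyrosine kinases for degradation, stood at 67.3, 60.4, 51.0 and 57.7 CPM in WT against 173, 168, 161 and 140.5 CPM in GrnKO replicates 1 to 4. The genotypes lay far apart, with a log2 fold change of 1.44 ± 0.12 (edgeR adjusted p = 6.8e-05), and Cblb was called without any 1 library. Pias4, an inhibitor of STAT factors, rose by 0.58 ± 0.15 (edgeR adjusted p = 0.047), a call lost without any library except WT replicate 1 (up to 0.16).

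Target genes of STAT factors were listed by factor, with the same 4.25% of all tested genes as background. Of 7 tested IL-4 and STAT6 target genes, the beta-glucan receptor Clec7a rose (1.08 ± 0.24, edgeR adjusted p = 0.026; up to 0.089 when WT replicate 2 or 3, or GrnKO replicate 1, 2 or 3, was left out), and the other 6 were not called (median -0.38). Of 10 IL-10 and STAT3 target genes, Il4ra itself was called and the other 9 were not (median -0.51). They included the IL-1 receptor antagonist Il1rn, at 135 to 437 CPM in WT against 397 to 550.1 CPM in GrnKO libraries, and Zfp36, at 131 to 224 and 88.9 to 154 CPM. Of 8 tested STAT5 target genes, the cyclin Ccnd2 fell (-1.41 ± 0.34, edgeR adjusted p = 0.039) and 7 were not called (median -0.30). Ccnd2 overlapped between genotypes, with 68.4 to 254 CPM in WT against 42.9 to 83.3 CPM in GrnKO libraries, and its call ended when WT replicate 2 or 3, or GrnKO replicate 1, 2 or 3, was left out (up to 0.13).

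**Figure D5:**
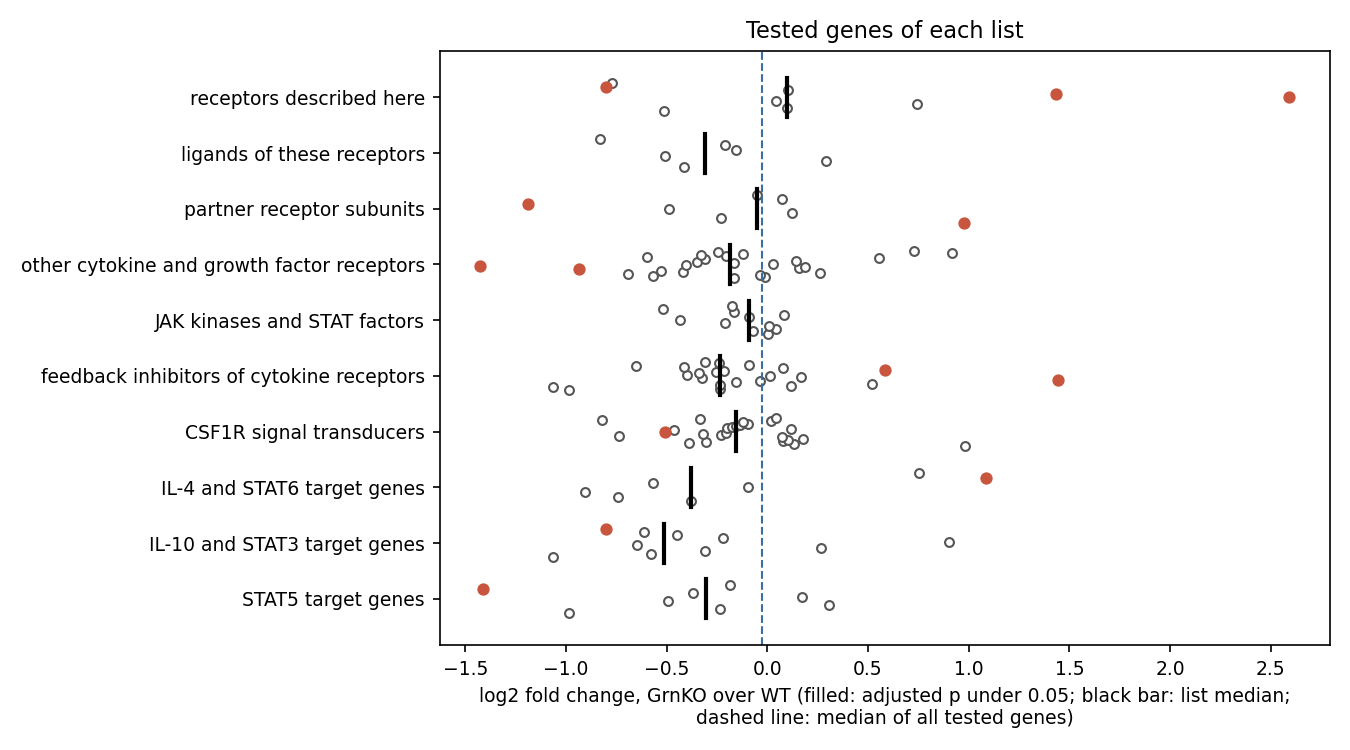
Log2 fold change of GrnKO over WT for every tested gene of the receptor set and of 9 pathway lists; filled points passed an adjusted p under 0.05, black bars are list medians and the dashed line is the median of all tested genes (-0.03). Between 0 and 2 points are filled in each list other than the receptor set, where 3 are, against 4.25% of all tested genes, and the medians of the lists other than the receptor set lie between -0.51 and -0.05.

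Among the 9216 or 9217 other genes whose mean reached 5 CPM, the profiles most like those of the called receptors were found by the root mean square difference of centred log2 CPM over the 8 libraries. For Il7r these were Slamf7 (a difference of 0.16) and the macrophage elastase Mmp12 (0.18). For Kit they were Mfge8 (0.45), Serpinb9b (0.47) and Cpeb1 (0.48), a looser likeness at its low counts. For Il4ra they were Bmyc (0.10), Mblac1 (0.12) and Arhgap31 (0.13), of which Bmyc alone was called. All of these genes share the direction of their receptor, which the measure favours.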

How the data were processed

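Polyadenylated RNA of 8 macrophage cultures was sequenced as 3′ tags with unique molecular identifiers, used to remove PCR duplicates, per the labels' protocols. The deposited table of estimated counts came from Salmon on GRCm39, per the submitters' processing notes, and 36.4% of the non-zero values deposited were not whole (tolerance 1e-06). The log2 CPM values deposited by the authors served as an alternative only. Gene symbols came from the deposited gene table.

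Estimated counts were rounded to whole numbers. Of 56980 genes, 12186 passed filterByExpr and were tested with edgeR 4.0.16 in R 4.3.3 (TMM factors, robust dispersions, quasi-likelihood F test, genotype only, Benjamini-Hochberg over all tested genes). Fold changes are GrnKO over WT. Standard errors follow from the F statistic. The procedure was also run on simulated data, where recovery was required only of large changes outside the lowest genes. That requirement did not cover genes as low as Kit. Alternatives used limma 3.58.1 and DESeq2 1.42.0 among others. The receptor genes and all lists were chosen with earlier results of these data known. Named genes were Grn, the receptors, up to 4 called genes per list by p or else the 2 most abundant, and the 3 nearest profiles of each called receptor, of which 1 is not reported here; partners and ligands described beside a receptor were added. Summed levels of dendritic, B and stromal cell markers are given at the end. Chi-square per degree of freedom between libraries of 1 genotype was 2.91 or more, so none repeats another. The p-values measure the spread between pooled-marrow replicates.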

Additional observations from a re-analysis of the deposited data

Results flagged for a closer look

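In 70 groups of 4 libraries (35 named genes in 2 genotypes), 5 held a library far from the others of its genotype, by the gap to its nearest neighbour over the whole range (Dixon's test at 95%). Chance alone picks out about 1 in 20 such groups. GrnKO replicate 4 was low for Csf1r, at 391 CPM against 567 to 593 CPM. GrnKO replicate 2 was low for Il4ra, at 61.6 CPM against 79.2 to 80.0 CPM. WT replicate 1 was low for Csf2rb2, at 28.6 CPM against 50.6 to 55.1 CPM, and high for Cpeb1, at 11.3 CPM against 9.28 to 9.53 CPM. GrnKO replicate 2 was high for Slamf7, at 129 CPM against 108 to 112 CPM.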

How the results depend on the processing

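Kit and Il7r kept their direction and their call under all 17 alternatives (log2 fold change 2.31 to 2.86 and 1.29 to 1.54, adjusted p up to 0.018 and 0.015). Il4ra kept its direction in all 17 and its call in 10 (adjusted p up to 0.15). Csf1r and Il10ra were called in 2 each and Csf2rb in 5. Csf3r turned to -0.028 with no scaling factors and ran from -0.25 (without WT replicate 1 or GrnKO replicate 2) to 0.26 with 1 library left out, and Csf2ra from -0.0038 (without GrnKO replicate 4) to 0.17, none of them called.

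Of the 9 tested receptors 3 were called; leaving out 1 library gave 2 to 6, the 6 without WT replicate 1, and testing every gene with a count gave 6. Over all genes, 518 were called (340 higher, 178 lower). Leaving out 1 library gave 267 to 942 (193 to 530 higher, 73 to 412 lower). With no filter on low counts 918 were called, 427 of them lower, with DESeq2 865 (536 and 329), at an adjusted p under 0.01 209 (157 and 52), and with no scaling factors 281 lower. The causes were not tested. No scaling factors moved the median of all genes to -0.10.

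The replicate numbers gave no sign of pairing: the deviations of same-numbered libraries correlated at -0.07, -0.14, 0.15 and -0.39. With the replicate block, edgeR called 220 genes (168 higher, 52 lower), among them Kit and Il7r but not Il4ra (adjusted p = 0.15) or Il21r (0.058), nor Pias4 (0.17), Pik3cg (0.12), Clec7a (0.11) and Ccnd2. Over 16 of the alternatives, Pias4 was called in 4 and Ccnd2 in 7. Neither was called with limma-voom, with the deposited log2 CPM or with no filter on low counts (edgeR adjusted p = 0.34 for Ccnd2 with no filter). Pias4 was also not called with no scaling factors. Depth limits Flt3 and the WT level of Kit, at 3 to 14 counts.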

Other observations

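Dendritic cell markers summed to 9.19 to 12.3 CPM over WT and 12.7 to 17.0 CPM over GrnKO libraries. Most of that sum was Itgax, at 6.02 to 9.53 and 9.55 to 14.2 CPM, which was not called (edgeR adjusted p = 0.063). Of the 9 dendritic cell markers, 7 had a mean under 1 CPM in both genotypes. The part of such cells was not tested. B cell markers summed to 1.91 to 3.98 CPM over WT and 1.66 to 3.05 CPM over GrnKO libraries. Stromal markers, most of it Kdr, summed to 10.3 to 34.9 and 27.3 to 35.8 CPM.

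Il2, a cytokine gene that macrophages are not known for, was counted at 10.9 CPM in WT against 9.77 CPM in GrnKO libraries on average. Il2 was not called (edgeR adjusted p = 0.74). Its estimated counts ran from 55.636 in GrnKO replicate 2 to 131.123 in WT replicate 1. They were whole in none of the 8 libraries, as for Csf2rb and Csf2rb2. The level of Il2 is therefore uncertain, and the origin of its reads was not tested.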
